A study of Mus musculus with 3 samples.

Results

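The expression of 10 genes of the oxidative stress response, most of them targets of Nrf2, was followed in CD4+ T cells from the kidney and the spleen of lupus-prone mice. They are 10 of 32285 gene rows, were chosen by symbol and not by their values, and all 10 were found in the matrices of both organs. By role they are the transcription factor Nrf2 itself (Nfe2l2), heme oxygenase 1 (Hmox1), sulfiredoxin (Srxn1), thioredoxin reductase 1 (Txnrd1), the modifier subunit of glutamate-cysteine ligase (Gclm), the quinone reductase Nqo1, the cystine and glutamate antiporter Slc7a11, the microsomal epoxide hydrolase Ephx1, the growth inhibitor Osgin1, and Txnip, the inhibitor of thioredoxin. The mice were MRL/lpr animals, which develop nephritis with large numbers of accumulated T cells, and the study deleted Ezh2, the methyltransferase of Polycomb repressive complex 2, in CD4+ T cells. Mice of genotype Ezh2fl/fl are called WT, and Ezh2fl/fl mice that also carried iCD4-Cre (CD4-Cre/ERT2, a tamoxifen-inducible Cre driven by Cd4 sequences) are called KO. Both genotypes carried the floxed alleles and both were gavaged with tamoxifen in corn oil at 300 mg/kg, 3 days a week in alternate weeks, from 10 weeks of age (preventative) or 14 weeks (therapeutic) to 24 weeks. The sources used here do not say which of these mice had which start. The Cre line reached this background by 6 generations of crossing. Cells were sorted from each organ by surface CD4, CD8a, CD3 and the T cell receptor beta chain, given 1 antibody tag per mouse and organ, pooled, and sequenced from the 5′ ends of their transcripts. Kidneys were digested with enzymes under heating and spleens were mashed, so organ and preparation cannot be told apart in any comparison of kidney with spleen.

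The values come from 2 KO and 3 WT mice, each with both organs and told by the order of the deposited tag key, on which every genotype and mouse given here rests, and 13337 cells (4979 kidney, 8358 spleen). Unique molecular identifier (UMI) counts were summed per mouse and organ into 10 sums of 900068 UMIs (kidney KO2) to 10102765 UMIs (spleen WT1). No cell barcode was shared between the tag blocks of these mice. The key of the tags also lists 4 further mice, whose cells could not be told apart and entered no comparison. Ezh2 itself stood at 75.8 and 59.8 CPM (UMIs set to a common library size with TMM factors) in KO kidney against 90.2, 159 and 139 CPM in WT kidney, and at 51.4 and 53.5 against 69.9, 172 and 152 CPM in spleen. KO lay below WT in both organs without overlap, but the fits did not call it (log2 fold change -0.87, edgeR adjusted p = 0.467 in kidney and -1.30, adjusted p = 0.192 in spleen). KO and WT did not overlap, in either direction, for 30.6% of all genes tested in kidney and 39.2% in spleen. The sources used here do not name the floxed exons, and reads at the 5′ end may lie outside them. Of the WT mice, WT1 stood nearest to KO, and it also stood apart in makeup. Its kidney cells lay 53.2% in cluster 2, the cluster that held 50.8% and 37.4% in the KO mice, against 77.8% and 69.1% in cluster 0 for WT2 and WT3. Of its spleen cells, 15.1% lay in cluster 9, which held at most 1.52% in the other spleens. All 7 T cell markers were above 0 in every sum, with Cd4 at 230 to 453 CPM. Summed markers of kidney tubule reached 855 CPM in a kidney sum and those of myeloid cells 422 CPM in a spleen sum. B cell markers summed to 6.08 to 59.6 CPM in kidney and 12.2 to 204.5 CPM in spleen, and CD8 markers to 25.3 to 176 CPM in kidney and 8.04 to 62.6 CPM in spleen. Erythroid and platelet markers stayed at or below 3.65 CPM and endothelial ones at or below 0.87 CPM. Their part in the organ differences was not tested. The p-values measure the spread between these few mice. In the main kidney against spleen fit that spread is taken over the 10 sums, without pairing the organs of a mouse. A sum also cannot tell fewer cells of a type from less RNA per cell.

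Nrf2 is made and degraded continuously under resting conditions, because Keap1 binds it and hands it to a Cul3 ubiquitin ligase that contains Rbx1. Oxidants and electrophiles modify Keap1, Nrf2 then accumulates, pairs with a small Maf protein (MafF, MafG or MafK) and binds antioxidant response elements near genes that make glutathione, reduce thioredoxin and break down heme and quinones. Bach1 and Bach2 pair with the same Maf proteins and repress such elements, and p62, the product of Sqstm1, can draw Keap1 away from Nrf2. T cells make reactive oxygen species on activation and meet more of them in inflamed tissue.

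The promoters of the members that the results turn on, Osgin1, Ephx1 and Srxn1, are shown first, to set the letters of an antioxidant response element beside the expression values. RefSeq promoter windows (GRCm38.p6, 250 bases before to 50 after an annotated start) were found for 9 of the 10 members. Each was searched on both strands for the element's core letters TGANNNNGC, and matches are in capitals in sequences written 5′ to 3′ along the gene's own strand. The Osgin1 window lies at chr8:119436897-119437196 on the plus strand, at a start inside the gene (chr8:119425882-119446257), the Ephx1 window at chr1:181017520-181017819 on the minus strand, at the start of the gene (chr1:180989556-181017569), and the Srxn1 window at chr2:152105274-152105573 on the plus strand, at the start of the gene (chr2:152105524-152111376).
Osgin1: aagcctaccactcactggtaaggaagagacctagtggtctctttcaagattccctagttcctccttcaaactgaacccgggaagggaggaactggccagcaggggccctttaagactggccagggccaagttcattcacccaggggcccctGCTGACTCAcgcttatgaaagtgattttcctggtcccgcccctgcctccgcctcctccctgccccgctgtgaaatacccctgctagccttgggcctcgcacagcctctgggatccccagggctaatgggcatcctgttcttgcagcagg
Ephx1: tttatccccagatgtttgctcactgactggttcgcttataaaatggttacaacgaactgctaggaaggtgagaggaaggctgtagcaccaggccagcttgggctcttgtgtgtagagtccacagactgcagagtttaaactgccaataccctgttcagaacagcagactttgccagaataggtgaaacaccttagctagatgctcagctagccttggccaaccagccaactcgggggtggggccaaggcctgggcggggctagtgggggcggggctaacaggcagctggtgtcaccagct
Srxn1: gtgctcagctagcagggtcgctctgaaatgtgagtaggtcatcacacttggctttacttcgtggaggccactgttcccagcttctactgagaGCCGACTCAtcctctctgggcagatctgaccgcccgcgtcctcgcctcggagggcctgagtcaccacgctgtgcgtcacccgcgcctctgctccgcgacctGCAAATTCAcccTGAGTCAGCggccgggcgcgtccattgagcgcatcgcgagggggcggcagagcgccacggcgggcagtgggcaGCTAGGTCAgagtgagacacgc
The Osgin1 window held 1 match, beginning at position -99 from the start and written on the opposite strand. Srxn1 held 4 matches and Ephx1 none. Every match to a stricter form, TGACNNNGC, is also a match to TGANNNNGC. Of the Srxn1 matches 1 has the stricter form, and the Osgin1 match does not have it. Such letters are common: 41.4% of 27025 windows of this length held TGANNNNGC and 12.5% held TGACNNNGC, so a match here is a description of the letters and not a binding site. Of the 9 members with a window, 6 held at least 1 match. These members had 11 windows in all, since Txnrd1 had 3, the first of them without a match. The count is thus by gene, whereas the 41.4% is by window. The windows of Nqo1 and Txnip held none, and none of the 9 held CACGTG.

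**Figure D1:**
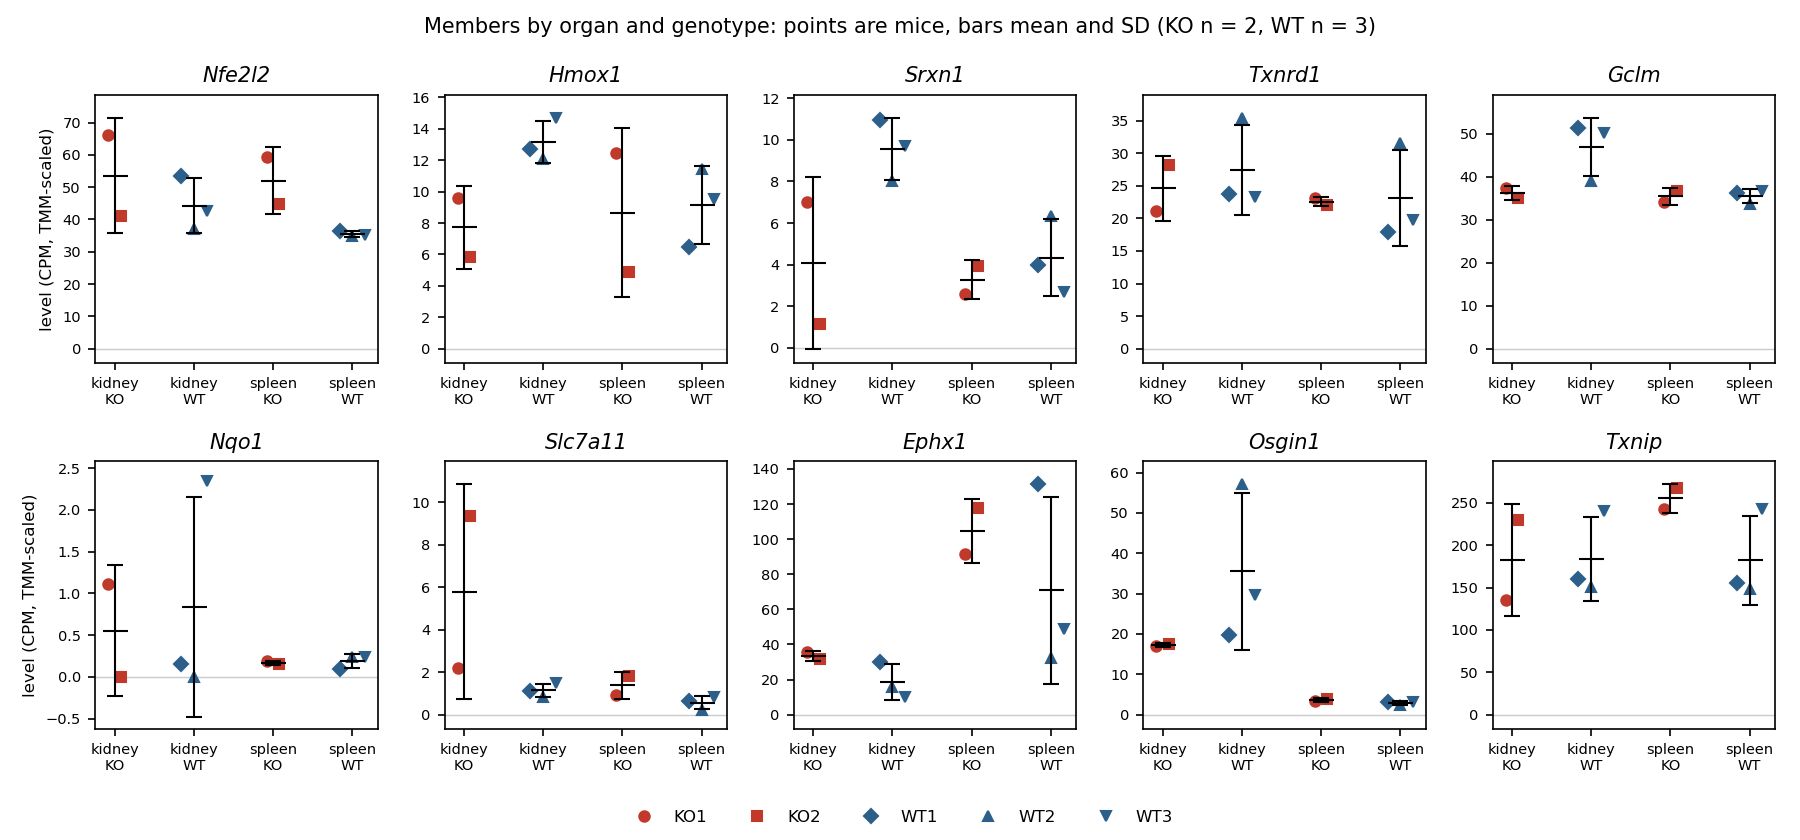
Level of each of the 10 genes (y axis, TMM-scaled CPM, drawn from below 0 only where an error bar reaches there) in kidney and spleen of KO and WT mice (x axis). Points are mice, the bar is the mean with SD (KO n = 2, WT n = 3). Osgin1 is above 16 CPM in every kidney and below 4 CPM in every spleen, and Ephx1 is lower in the kidney than in the spleen of each mouse.

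Kidney CD4+ T cells differed from spleen CD4+ T cells in 2 of the 10 genes, in opposite directions. Osgin1 was 8.63-fold higher in kidney and Ephx1 was 3.48-fold lower. Of the other 8 genes, 7 were tested and none passed the threshold, and Nqo1 was too low to test. The comparison used edgeR's quasi-likelihood test on the 10 sums, with genotype as a covariate and the organs of a mouse unpaired. It called an adjusted p under 0.05. By that rule 21.7% of the 12072 genes tested were called, 12.1% higher in kidney and 9.64% lower, so 2 of 9 members called is close to the share of all genes. The median log2 fold change was 0.27 over the 9 members tested and -0.04 over all genes tested. When sums were scaled by their totals alone, the all-gene median moved to -0.19 and the share of called genes that were higher in kidney from 55.6% to 30.8%. Both member calls held on that scale.

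Osgin1 encodes an oxidative stress induced growth inhibitor. The kidneys of KO1, KO2, WT1, WT2 and WT3 held 17.0, 17.6, 19.7, 57.2 and 29.7 CPM of it. The spleens held 3.35, 3.95, 3.11, 2.34 and 3.18 CPM in the same order. Every kidney lay above every spleen, a separation that 14.8% of all genes tested also showed. The kidney mean was 28.2 ± 17.0 CPM and the spleen mean 3.18 ± 0.58 CPM (SD, n = 5 each), from 622 and 115 UMIs. The fitted log2 fold change was 3.11 ± 0.36 (SE, edgeR adjusted p = 0.000336). Within mice the kidney level was higher in 5 of 5 (mean log2 difference 2.66 ± 0.90 SD, two-sided exact permutation p = 0.063, the smallest that 5 pairs allow, 0.208 adjusted over the 10 members). The call held in every alternative run, from 2.22 in KO mice alone (adjusted p = 0.00156) to 3.60 in WT mice alone (adjusted p = 0.00844). WT2 had the highest kidney level and the lowest spleen level, and without WT2 the log2 fold change was 2.64.

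The clusters in which Osgin1 was counted differed between the organs. Clusters were made without the 10 genes, the related lists and the cell type markers, and they are given by number and leading genes where the markers gave no name. Of the 115 spleen UMIs of Osgin1, cluster 4 (regulatory T-like) gave 27 and cluster 1 (cytotoxic-like) gave 20. Among clusters of at least 30 cells, the highest level over both organs was 89.7 CPM in cluster 23 (led by Il12rb2, Zbtb16 and Cd160). That cluster had 30 cells, 2 of them from kidney. Of the 622 kidney UMIs of Osgin1, 61.4% lay in cluster 0 (led by Ppp2r2c, Esm1 and Nrarp). Cluster 0 held 40.4% of kidney cells, and 2013 of its 2019 cells came from kidney. Osgin1 stood there at 31.8, 69.4 and 25.6 CPM of the cluster total in WT1, WT2 and WT3, and both KO mice had fewer than 30 cells in it. A further 14.1% lay in cluster 10 (led by Klrc1, Gzma and Klrd1), at 76.2, 73.3, 43.2 and 39.7 CPM in the kidneys of KO1, KO2, WT1 and WT2. Cd8a and Cd8b1 were among the leading genes of cluster 10, and its mean log2 fold of CD8 markers, 3.26, was the highest of all clusters. Whether its cells are CD4+ T cells was not tested. Cluster 25, the kidney tubule-like cells, gave 37 of the 622 UMIs, 36 of them among the 101 of WT3. The log2 fold change was 3.00 (edgeR adjusted p = 0.000471) without the cells of that cluster and of cluster 21, which was led by immunoglobulin and myeloid transcripts, an alternative chosen after seeing the data.

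Where 1 mouse had at least 30 cells of a cluster in both organs, the kidney level of Osgin1 was the higher in 7 of 9 pairs, equal in 1 and lower in 1. In regulatory T-like cells it was 23.3 CPM in kidney against 3.30 CPM in spleen for KO1, and 13.6 against 8.64 CPM for WT1. In follicular helper-like cells of cluster 6 the level was 15.0 against 0 CPM for KO1 and 17.2 against 2.28 CPM for WT1. In cluster 10 of WT1 it was 43.2 against 16.7 CPM. These levels rest on 3 to 45 UMIs in kidney and 0 to 14 in spleen, and they were not tested. The cytotoxic-like cells of cluster 1 were the lower pair in WT3, at 0 CPM in kidney against 4.48 CPM in spleen, and WT2 had 4.82 against 3.09 CPM. These kidney values rest on 0 UMIs in 63 cells and 1 UMI in 73 cells, too few to show a direction. Naive-like cells of cluster 3 held almost no Osgin1 in spleen, with 0.37 CPM in KO1 and 0 CPM in KO2 and WT1.

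**Figure D2:**
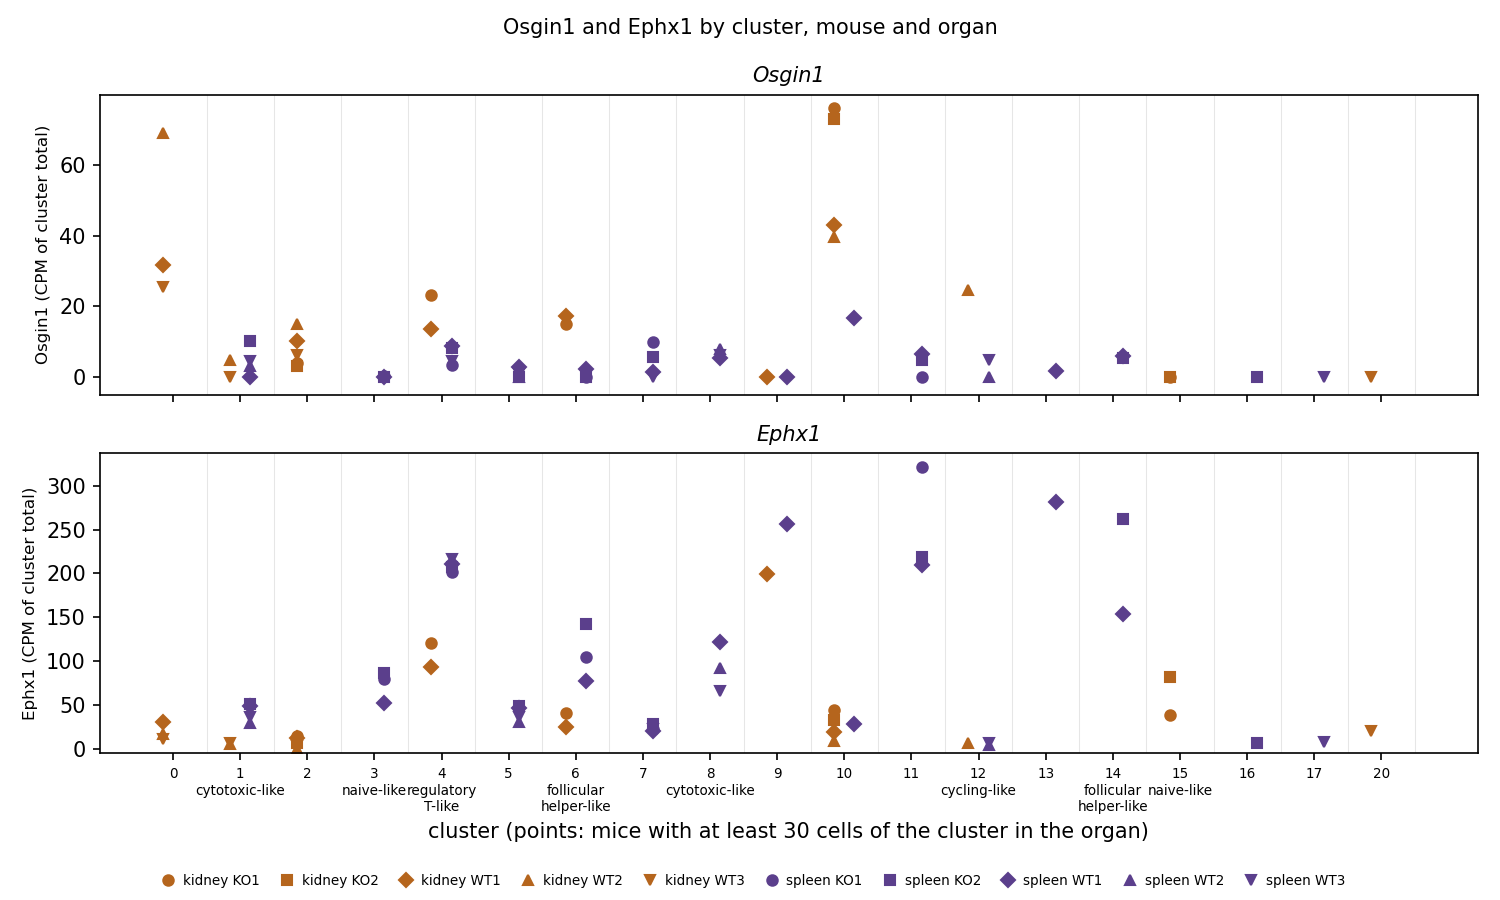
Osgin1 (upper panel) and Ephx1 (lower panel) as CPM of the cluster total (y axis) by cluster (x axis), in kidney and spleen. Points are mice with at least 30 cells of the cluster in the organ. Kidney clusters 0 and 10 hold the high Osgin1 values, and the Ephx1 values above 150 CPM lie in spleen clusters 4, 9, 11, 13 and 14 and in kidney cluster 9 of WT1 (199 CPM).

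Ephx1 encodes the microsomal enzyme that hydrolyses epoxides. Its level was 35.5, 31.6, 29.9, 16 and 10.3 CPM in the kidneys of KO1, KO2, WT1, WT2 and WT3. In the spleens it was 91.8, 118, 131, 32.3 and 48.6 CPM. Each mouse had less in kidney than in spleen, but the organs overlapped, since the kidney of KO1 lay above the spleen of WT2. The fitted log2 fold change was -1.80 ± 0.39 (SE, edgeR adjusted p = 0.00981), from 440 kidney and 3282 spleen UMIs. The paired difference was -1.68 ± 0.51 on the log2 scale (SD, n = 5), with a two-sided exact permutation p = 0.063 and 0.208 adjusted over the 10 members. The edgeR call was lost without KO2 (-1.77, adjusted p = 0.0587) and in WT mice alone (-1.89, adjusted p = 0.114). In regulatory T-like cells Ephx1 stood at 120.5 and 93.1 CPM in the kidneys of KO1 and WT1, against 201.5 to 216 CPM in 4 spleens. In follicular helper-like cells of cluster 6 it stood at 40.0 and 24.6 CPM in kidney and at 77.5 to 142 CPM in 3 spleens. Where 1 mouse had at least 30 cells of a cluster in both organs, the kidney level of Ephx1 was the lower in 8 of 9 pairs. The exception was cluster 12 of WT2, at 6.58 CPM in kidney against 3.998 CPM in spleen, from 4 and 3 UMIs. In spleen, cluster 4 (regulatory T-like) gave 23.2% of the Ephx1 UMIs from 11.3% of the cells and cluster 9 gave 18.1% from 5.18%. In kidney, cluster 4 held 2.85% of the cells and cluster 9 held 1.06%. What part these shares have in the difference between the organs was not tested.

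Srxn1 and Slc7a11 lay near the threshold. Srxn1, the enzyme that repairs overoxidised peroxiredoxins, stood at 7.02, 1.17, 11.0, 8.0 and 9.70 CPM in the kidneys of KO1, KO2, WT1, WT2 and WT3. In the spleens it stood at 2.61, 3.95, 3.99, 6.32 and 2.69 CPM. Kidney exceeded spleen in 4 of 5 mice, and the exception, KO2, had 1 UMI of the gene in kidney. The log2 fold change was 0.97 ± 0.35 (SE, edgeR adjusted p = 0.0724), and it passed with the mouse as a block (1.04, adjusted p = 0.0497), with DESeq2 (1.00, adjusted p = 0.0265) and without KO2 (1.22, adjusted p = 0.0366). Slc7a11 imports the cystine from which glutathione is made, and its partner subunit is Slc3a2. It stood at 2.22, 9.37, 1.11, 0.85 and 1.47 CPM in kidney and at 0.93, 1.82, 0.62, 0.23 and 0.85 CPM in spleen, from 31 and 32 UMIs. Kidney exceeded spleen in 5 of 5 mice (two-sided exact permutation p = 0.063). The log2 fold change of 1.29 ± 0.52 (SE) had an edgeR adjusted p of 0.105, and with the mouse as a block it was 1.38 (adjusted p = 0.0427). Blocking on the mouse thus raised the members called from 2 to 4, while the share of all genes called rose to 30.8%. Cluster 21 gave 11 of the 31 kidney UMIs of Slc7a11, 7 of them among the 8 of KO2. Without clusters 21 and 25 the gene fell under the filter on low counts. 

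For Nfe2l2, Hmox1, Txnrd1, Gclm and Txnip the organs overlapped and no difference was called. Nfe2l2 ranged from 36.9 to 66.2 CPM in kidney and from 34.9 to 59.4 CPM in spleen (log2 fold change 0.23 ± 0.15). Gclm, which sets the rate of glutathione synthesis together with the catalytic subunit, ranged from 35.2 to 51.4 CPM in kidney and from 33.7 to 36.8 CPM in spleen (0.27 ± 0.11, edgeR adjusted p = 0.108). The 5 spleens were close to each other for this gene (35.5 ± 1.5 CPM, SD, n = 5), and 4 of the 5 kidneys lay above all of them. Txnrd1, which keeps cytosolic thioredoxin reduced, ranged from 21.1 to 35.4 CPM in kidney and from 17.9 to 31.6 CPM in spleen (0.20 ± 0.19). Txnip, which binds reduced thioredoxin and is induced by glucose through MondoA and Mlx, ranged from 136 to 240.0 CPM in kidney and from 148 to 267 CPM in spleen (-0.19 ± 0.21). Hmox1 ranged from 5.86 to 14.7 CPM in kidney and from 4.87 to 12.5 CPM in spleen (0.34 ± 0.28). Of its UMIs, cluster 21 held 66 of 232 in kidney and 49 of 299 in spleen, although that cluster had 57 cells in all. Hmox1 stood at 224 CPM in those cells, and its log2 fold change between the organs was 0.17 without clusters 21 and 25. Nqo1 gave 12 UMIs in kidney and 6 in spleen, and 8 of the 12 came from tubule-like cells of WT3. It had 0 UMIs in the kidneys of KO2 and WT2, which allows up to 3.52 and 0.51 CPM by counting error alone (3 counts).

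**Figure D3:**
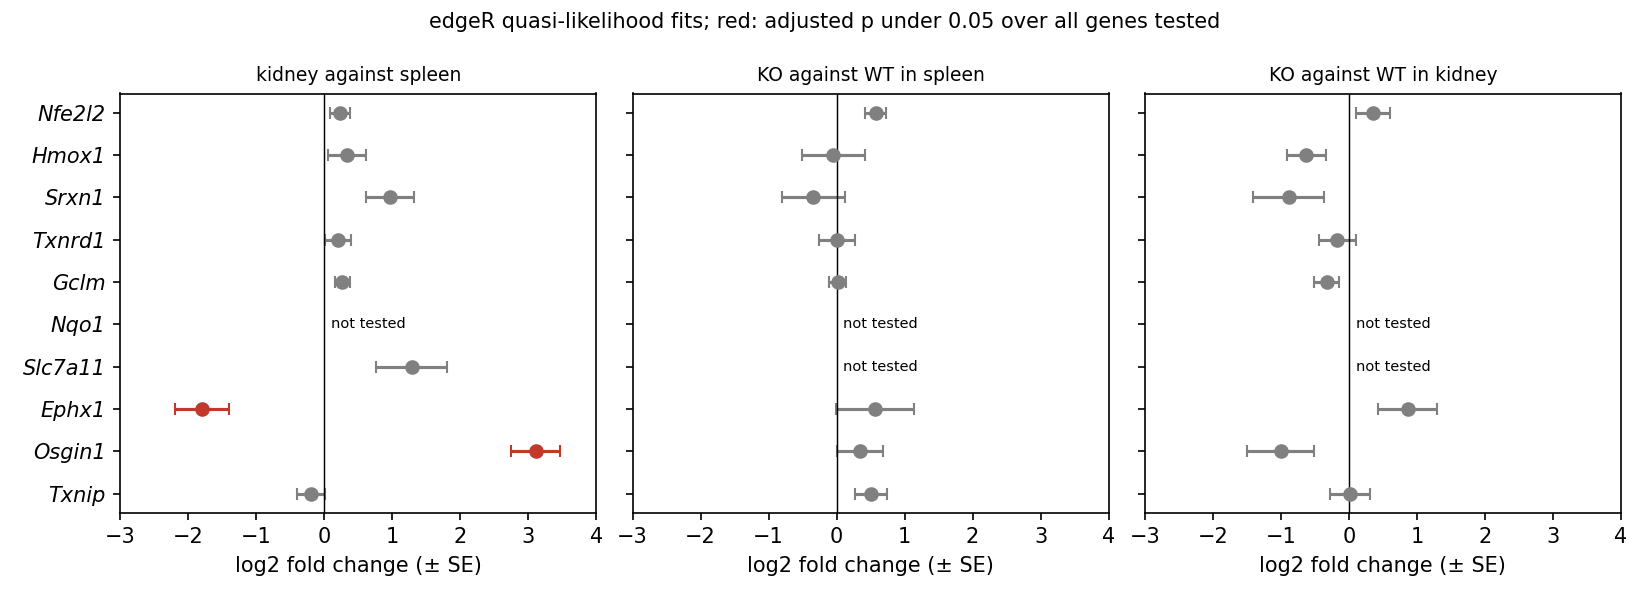
Log2 fold change with SE (x axis) for each gene (y axis) in kidney against spleen, KO against WT in spleen and KO against WT in kidney, from edgeR. Red points have an adjusted p under 0.05 over all genes tested. Osgin1 at 3.11 and Ephx1 at -1.80 in kidney against spleen are the only red points.

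None of the 10 genes was called between KO and WT. In spleen 8 of the 10 passed the filter on low counts and 0 were called by edgeR, 1 of them at an unadjusted p under 0.05, against 28 of 11698 genes (0.239%). DESeq2 called none of them either, and 697 genes in all. In kidney 8 were tested and 0 were called, none at an unadjusted p under 0.05, beside 0 of 10486 genes (0%, with 966 at an unadjusted p under 0.05 and 58 called by DESeq2). Nqo1 and Slc7a11 were the members left out by the filter in both organs. The member median log2 fold change was 0.18 in spleen and -0.25 in kidney, beside -0.01 over all genes tested in each. With 2 mice against 3, an exact permutation test cannot give a p below 0.1.

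Nfe2l2 was the member with the unadjusted p under 0.05. The KO1 and KO2 spleens held 59.4 and 44.7 CPM, and the 3 WT spleens 36.5, 34.9 and 35.0 CPM. Both KO spleens lay above all 3 WT spleens. The KO and WT spleens did not overlap, in either direction, for 39.2% of all genes tested. The log2 fold change was 0.57 ± 0.16 (SE, edgeR adjusted p = 0.17, two-sided exact permutation p = 0.1, the smallest possible). In kidney the values were 66.2 and 41.0 CPM in KO and 53.4, 36.9 and 42.6 CPM in WT, which overlap (0.36 ± 0.25, adjusted p = 0.667). Naive-like cells of cluster 3 made up 52.2% and 36.6% of the KO spleens and 0.75% to 2.28% of the WT spleens, and Nfe2l2 stood at 67.6, 57.7 and 48.0 CPM in those of KO1, KO2 and WT1. With the naive-like and cycling-like cells left out, the log2 fold change in spleen was 0.14 (edgeR adjusted p = 0.742). In regulatory T-like spleen cells the KO values of 23.1 and 32.2 CPM overlapped with the WT values of 25.9 and 32.2 CPM. In the naive-like cells both KO values lay above that of WT1, which had 47 such cells. Over KO and WT spleens with at least 30 cells, Nfe2l2 ranged from 36.0 to 39.3 CPM in cluster 6 and from 54.3 to 92.5 CPM in cluster 7. What part the cell makeup has in the spleen difference was not tested.

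Ephx1 between the genotypes depended on WT1. Its spleen level of 131 CPM in WT1 lay above both KO spleens, and WT2 and WT3 lay below both. In kidney both KO values lay above all WT values, with WT1 the nearest. The KO and WT kidneys did not overlap, in either direction, for 30.6% of all genes tested. The log2 fold change was 0.57 ± 0.57 in spleen (edgeR adjusted p = 0.661) and 0.86 ± 0.43 in kidney (adjusted p = 0.579). Without WT1, Ephx1 was called higher in KO in spleen (1.36, adjusted p = 0.00653) and in kidney (1.39, adjusted p = 0.0266). Leaving out WT1 also raised the genes called from 28 to 2254 in spleen and from 0 to 739 in kidney, and leaving out any other mouse gave 0 in both organs. In spleen WT1, 17.3% of cells were regulatory T-like and 15.1% lay in cluster 9, the clusters named above for Ephx1, against 0.11% to 2.42% and 0.98% to 1.41% in WT2 and WT3. In KO spleens regulatory T-like cells made up 11.5% and 20.8%. Within the regulatory T-like cells the 4 spleens with at least 30 of them, 2 KO and 2 WT, ranged from 201.5 to 216 CPM. What part the cell makeup has in the Ephx1 values was not tested.

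In kidney, Osgin1, Hmox1, Srxn1 and Gclm had KO values below every WT value. Osgin1 stood at 17.3 ± 0.41 CPM in KO (SD, n = 2) and 35.5 ± 19.4 CPM in WT (SD, n = 3), a log2 fold change of -1.01 ± 0.49 (edgeR adjusted p = 0.568). The KO kidneys had 3.49% and 6.85% of their cells in cluster 0, against 10.9%, 77.8% and 69.1% in the WT kidneys. In cluster 10, where CD8 markers were raised, Osgin1 stood at 76.2 and 73.3 CPM in KO and 43.2 and 39.7 CPM in WT1 and WT2. The order there was the other way, from 21 and 9 UMIs in KO1 and KO2 and 45 and 9 in WT1 and WT2. In cluster 2, where all 5 kidneys had at least 30 cells, Osgin1 ranged from 3.21 to 15.2 CPM. KO1 and KO2 had 5 and 1 UMIs there in 364 and 82 cells. WT1, WT2 and WT3 had 35, 4 and 2 UMIs in 866, 55 and 83 cells, more per cell than either KO mouse. What part the cluster makeup has in the Osgin1 values was not tested. Hmox1 stood at 9.61 and 5.86 CPM in KO and 12.7, 12.1 and 14.7 CPM in WT (-0.63 ± 0.29, edgeR adjusted p = 0.553). Srxn1 stood at 7.02 and 1.17 CPM in KO and 8.0 to 11.0 CPM in WT (-0.89 ± 0.52, adjusted p = 0.617). Gclm stood at 37.3 and 35.2 CPM in KO and 39.1 to 51.4 CPM in WT (-0.33 ± 0.18, adjusted p = 0.602). Such a separation of the kidneys in either direction was found for 30.6% of all genes tested, and none of the 4 was called. Slc7a11, with 2.22 and 9.37 CPM in KO and 0.85 to 1.47 CPM in WT, was the reverse and rests on 5 to 8 UMIs a mouse. In kidney WT3, tubule-like cells gave 36 of 101 Osgin1, 7 of 33 Srxn1 and 22 of 171 Gclm UMIs. They gave 0 in both KO kidneys and 0 to 2 in WT1 and WT2. The cluster led by immunoglobulin and myeloid transcripts gave 22 of 50 Hmox1 UMIs in WT3, 31 of 80 in WT1 and 3 of 71 in WT2. It gave 10 of 26 in KO1 and 0 of 5 in KO2. Srxn1 in KO2 rests on 1 UMI. The part of these cells in the order of the kidneys was not tested. In spleen Osgin1 stood at 3.35 and 3.95 CPM in KO and 2.34 to 3.18 CPM in WT, and Txnip at 243 and 267 CPM in KO and 148 to 243 CPM in WT. For both genes KO lay above every WT mouse, by a narrow margin. Slc7a11 did so too, at 0.93 and 1.82 CPM against 0.23 to 0.85 CPM, from 1 to 12 UMIs a mouse. The KO and WT spleens did not overlap, in either direction, for 39.2% of all genes tested. The log2 fold changes of Osgin1, Hmox1, Srxn1, Txnrd1 and Gclm in spleen were 0.35, -0.05, -0.34, 0.01 and 0.02, and that of Txnip was 0.50 ± 0.24 (edgeR adjusted p = 0.353). Leaving out naive-like and cycling-like cells turned the Txnip value to -0.12. The difference of the KO effect between the organs was called for 0 of 9 members and 0 of 12072 genes (0%, with 487 at an unadjusted p under 0.05 and 6 called by DESeq2). It was -1.36 ± 0.62 on the log2 scale for Osgin1 (unadjusted p = 0.0545 in edgeR).

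The genes around the pathway were taken from 7 lists holding 75 further genes. Of the 7, the control list had the largest share of genes called between kidney and spleen. Of its 10 genes, all tested, 5 were called higher in kidney by edgeR and 2 lower, with a median log2 fold change of 0.61 beside -0.04 over all genes tested. Each list count is to be read against the 12.1% of all genes called higher and the 9.64% called lower. Sqstm1 rose by 0.98 ± 0.07 (SE), from 311, 292, 273, 306 and 299.9 CPM in the spleens of KO1, KO2, WT1, WT2 and WT3 to between 542 and 623 CPM in the kidneys, with no overlap. The Nrf2 partners Maff (1.36 ± 0.26), Mafk (0.68 ± 0.09) and Mafg (0.63 ± 0.12) and the competing repressor Bach1 (0.59 ± 0.10) were also called higher, with edgeR adjusted p of 0.00487, 0.000736, 0.0044 and 0.00232. Keap1 (-0.52 ± 0.11) and Rbx1 (-0.42 ± 0.07) were called lower, with adjusted p of 0.00893 and 0.00339. Cul3 (0.20), Bach2 (0.74) and Nfe2l1 (-0.05) were not called.

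**Figure D4:**
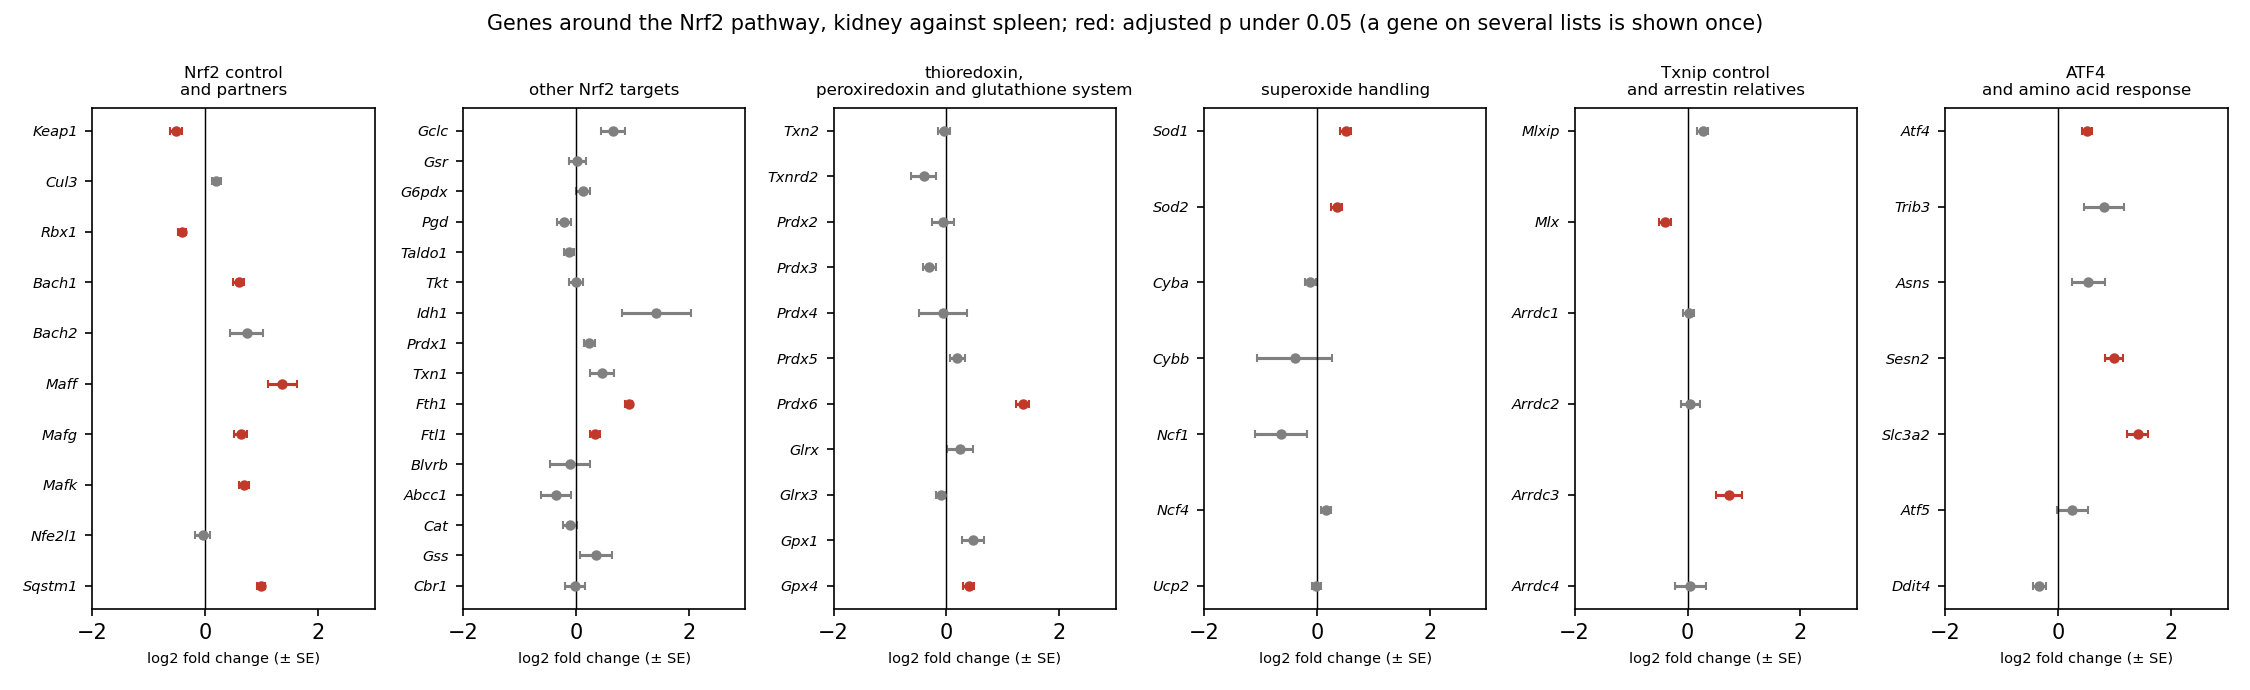
Log2 fold change with SE between kidney and spleen (x axis) for genes of 6 lists around the Nrf2 pathway (y axis), from edgeR on the 10 sums, with a gene on several lists shown once. Red points have an adjusted p under 0.05. Of the 16 other Nrf2 targets 14 are grey, and Sqstm1, Maff, Fth1, Prdx6 and Slc3a2 lie at 0.93 or above.

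Of 17 other Nrf2 targets, 16 were tested, 2 were called higher and none lower, close to the share of all genes called higher, with a median log2 fold change of 0.07. The 2 were the ferritin chains Fth1 (0.93 ± 0.07, edgeR adjusted p = 3.14e-05) and Ftl1 (0.34 ± 0.08, adjusted p = 0.0169), which store iron. In the thioredoxin, peroxiredoxin and glutathione list 2 of 16 were called, both higher, namely the peroxiredoxin Prdx6 (1.35 ± 0.12, adjusted p = 7.56e-05) and the lipid peroxide reductase Gpx4 (0.39 ± 0.09, adjusted p = 0.0145). Prdx6 was 427 to 566 CPM in the kidneys and 147 to 262 CPM in the spleens. Of 8 genes that make or remove superoxide, the dismutases Sod1 (0.51 ± 0.10) and Sod2 (0.35 ± 0.10) were called higher. ATF4 is another activator of Slc7a11, and in its list 3 of 7 tested were called higher: Slc3a2 (1.41 ± 0.18, adjusted p = 0.000617), the sestrin Sesn2 (0.99 ± 0.16, adjusted p = 0.00193) and Atf4 (0.52 ± 0.09, adjusted p = 0.00242). Ddit3 was left out because 2 rows share its symbol. Among 6 genes of Txnip control and its arrestin relatives, Arrdc3 was called higher (0.73 ± 0.23) and Mlx lower (-0.40 ± 0.11), and both calls were lost in several alternatives. Beside these stand the 14 heat shock and immediate early genes, a list that can move with enzymatic dissociation. Of them Atf3 (1.54 ± 0.27) and Fosb (0.97 ± 0.21) were called higher in kidney and Jun (-1.61 ± 0.37) and Fos (-1.40 ± 0.22) lower, and the list's median was -0.13. Their part in the member results was not tested.

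Between the genotypes 1 gene of the 7 lists was called, in spleen. Over all genes tested, 28 of 11698 (0.239%) were called in spleen and 0 of 10486 in kidney. Maff was higher in KO spleens, with 128 and 80.3 CPM against 22.3, 15.7 and 14.7 CPM in WT (2.58 ± 0.28, edgeR adjusted p = 0.0445). In kidney it stood at 218 and 206 CPM against 80.1, 31.6 and 48.5 CPM and was not called (2.02 ± 0.36, adjusted p = 0.392). The kidney values did not overlap, as was found in either direction for 30.6% of all genes tested. Cluster 3, the naive-like cells that were more frequent in KO spleens, held 56.4% of the spleen UMIs of Maff, and the part of this in the difference was not tested. The spleen call was lost without naive-like and cycling-like cells (1.53, adjusted p = 0.327), with library totals (2.51, adjusted p = 0.053) and without any of KO1, KO2, WT2 and WT3, where the adjusted p ran from 0.151 to 0.531.

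For the called members, the genes with the most similar pattern over the 10 sums were listed by Pearson's r of log2(CPM + 1). For Osgin1 they were Sphk2 (0.985), Rnf4 (0.984) and Mknk2 (0.977), and for Ephx1 they were Cluap1 (0.979), Hlcs (0.970) and Chd9 (0.970). Sphk2 averaged 29.97 CPM over the kidneys and 11.9 CPM over the spleens, the same order as Osgin1, and Cluap1 averaged 15.0 and 21.9 CPM, the same order as Ephx1. The 10 points share mice and libraries, so the correlations are a description.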

How the data were processed

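Sorted kidney and spleen CD4+ T cells were measured as deposited UMI counts, 1 whole-number matrix per organ with no normalization by the authors. The counts came from Cell Ranger 7.1.0 per the file headers, and the submitters' processing notes also name Seurat 5.0.1 and mm10 (GRCm38). Other settings: not given in the sources used here. The counting reads a 5′ tag per molecule, so levels were compared between samples and not between genes. The matrices number the tags and the deposited key gives their sequences, so tags were joined to mice by the key's order. That this is also the maker's numbering is background knowledge and not in the files. In the 10 first-day blocks, told by tags 9 and 10, kidney tags led the kidney blocks and spleen tags the spleen blocks, whereas tag 1, a kidney tag, led all 8 second-day blocks, 4 of them in the spleen matrix. Genotype and mouse rest on the join itself. Each of 10 first-day barcode blocks was led by 1 tag. The other 8 blocks drew on 2399 distinct barcodes (6 held 2399, the rest 2148 and 981) and were not used. Cells with at least 200 genes and under 10% mitochondrial UMIs were kept, 13 led by another tag were dropped, and no doublet caller was run, so doublets within a tag were not removed. Columns of other samples numbered 0.

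Counts were summed per mouse and organ and tested with edgeR 4.0.16 (quasi-likelihood, TMM, filterByExpr, Benjamini-Hochberg over all genes tested, threshold 0.05) in R 4.3.3. DESeq2 1.42.0 was an alternative. Levels are CPM from the TMM-scaled totals. Exact tests used log2(CPM + 1). Clusters came from the Leiden method of igraph 0.11.9 on 2000 variable genes, 30 components and 15 neighbours at resolution 1, without 165 list and marker genes. This gave 26 clusters, 10 of them named from markers. A name needed a mean log2 fold of at least 1, 3 raised markers and a marker among the 10 leading genes. Clusters led by immunoglobulin genes or with low UMI counts were left unnamed. The CD8 list has 2 genes and so could give no name. A level by cluster needed 30 cells. Names rest on these rebuilt clusters. The edgeR steps were tested on simulated data. Named genes were all 10 members, list genes past the threshold (at most 4 per direction and list), Keap1 and the Maf partners, and 3 genes per called member by correlation. The members, lists and tests were chosen with earlier results of these data known. Positions and promoters come from RefSeq, GRCm38.p6. Kidney and spleen of 1 mouse are paired by the tag key; same-mouse correlations of deviations were 0.016 for KO and 0.27, 0.59 and 0.63 for WT. Precision follows the UMI totals of 900068 to 10102765, and counting limits cover counting error only.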

Additional observations from a re-analysis of the deposited data

Results flagged for a closer look

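The second-day barcodes, where 2399 distinct barcodes recur over 8 blocks of both matrices (6 blocks of 2399 and smaller ones of 2148 and 981), entered no comparison, and all 10 genes were detected in them. Counted once, they held Txnip at 255 CPM, Gclm at 73.5 CPM and Nfe2l2 at 68.5 CPM. Ephx1 stood at 35.2 CPM, Txnrd1 at 29.4 CPM, Hmox1 at 24.8 CPM and Osgin1 at 20.6 CPM. Srxn1 stood at 4.68 CPM, Slc7a11 at 3.64 CPM and Nqo1 at 0.52 CPM, from 45, 35 and 5 UMIs. No mouse, organ or genotype can be given to these values.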

How the results depend on the processing

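Osgin1 was called higher in kidney than in spleen in every alternative run. With the mouse as a replicate block, which pairs the organs, 4 members were called in that comparison in place of 2, and in WT mice alone 1 was. Leaving out mice in turn kept it at 2 to 2, although Ephx1 lost its call without KO2. Between KO and WT the members called ran from 0 to 1 in spleen and from 0 to 1 in kidney, and the 1 was Ephx1 without WT1. The block changed no other member call, the difference of the KO effect between the organs included (0 to 0 on leaving out mice).

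Uncalled values changed sign as follows, and the cause was not tested. With naive-like and cycling-like cells left out, for KO against WT in spleen Hmox1 was 0.56, Srxn1 0.54 and Txnip -0.12, and Nfe2l2 and Txnip in the organ difference were 0.18 and 0.04. With library totals Txnrd1 and Gclm in spleen were -0.05 and -0.04 and Txnip in kidney was -0.05. With no filter on low counts these were -0.0092, -0.00052 and -0.03. Txnip in kidney was -0.07 without naive-like and cycling-like cells and, between the organs, 0.02 in WT mice alone. Gclm in spleen was -0.0047 without the immunoglobulin-led and tubule clusters, and Hmox1 in the organ difference was 0.21 without cells holding other-type UMIs. On leaving out mice in turn, the spleen values ran from -0.88 to 0.47 for Hmox1, from -0.14 to 0.27 for Txnrd1 and from -0.05 to 0.06 for Gclm. The kidney values ran from -0.09 to 0.60 for Nfe2l2, from -0.36 to 0.06 for Txnrd1 and from -0.41 to 0.35 for Txnip. The organ difference ran from -2.92 to 0.26 for Srxn1, from -0.39 to 0.06 for Txnrd1 and from -0.02 to 0.54 for Ephx1.

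The genes called over the whole table moved by more than 1.5 times in these cases. For kidney against spleen, 2624 became 891 in WT mice alone, 1393 in KO mice alone, 1350 without KO1, 1398 without KO2, 1606 without WT3 and 1747 without WT2. For KO against WT in spleen, 28 became 697 with DESeq2, 340 with no filter, 232 without cells holding other-type UMIs, 2254 without WT1, and 0 without naive-like and cycling-like cells or without any other mouse. In kidney, 0 became 739 without WT1, 58 with DESeq2, 26 with no filter, and 1 each with library totals, with a mitochondrial share under 5% and without the immunoglobulin-led and tubule clusters. The difference between the organs gave 4 with the replicate block, 6 with DESeq2 and 1 without WT1. Of 22 list genes called between kidney and spleen, 22 stayed called with the same sign with the block and with DESeq2, 18 with library totals, 15 in KO mice alone and 12 in WT mice alone. Low counts limit Nqo1 (18 UMIs in all) and Slc7a11 (63 UMIs), and the kidney of KO2 is the smallest sum (900068 UMIs).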
